A study of Mus musculus with 24 samples.

Results

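The laminin chains analysed here are 9 genes of the mouse, namely the alpha chains Lama1, Lama2, Lama3, Lama4 and Lama5, the beta chains Lamb1, Lamb2 and Lamb3, and the gamma chain Lamc1. They were selected by gene symbol from a table of RNA-seq read counts for 54532 genes, and each of the 9 symbols matched 1 row. All 9 passed the expression limit used for testing, as did 22570 genes in all. Every chain was detected in each of the 24 libraries, with 94 to 14861 reads per chain and library.

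The libraries were made from whole kidneys of mice labelled C57BL/6 (C57BL/6 J per the study's methods) and aged 18 days, 1 library per mouse. All mice had 1 copy of the RC missense allele of Pkd1, which lowers polycystin-1 function, and the groups differed in the second Pkd1 allele and in the 3′ UTR of the RC allele. RC/+ mice (n = 3, labelled as controls) had a floxed second allele and no Cre, so that this allele stayed functional, whereas in RC/- mice (n = 5, labelled cystic) a Ksp-driven Cre, which is active in the tubule epithelium, had inactivated it. In RC/+ D18 (n = 3) and RC/- D18 (n = 5) mice the RC allele lacked the miR-17 binding motif of its 3′ UTR, in a line from founder 3, and in RC/+ D53 (n = 3) and RC/- D53 (n = 5) mice in a line from founder 2. Each edited line thus descends from 1 founder, and because only RC/- mice carried Cre, Cre and the cystic genotype cannot be told apart. The study reports that at this age the edit almost fully relieved the cystic disease of RC/- mice. For the edited lines, cystic and noncystic therefore name the RC/- and RC/+ genotypes here, and not the state of the tissue. The deletion was made to free the Pkd1 transcript from repression by miR-17, and setting edited beside unedited RC/- kidneys addresses what this does to the cystic kidney.

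Laminins are large cross-shaped proteins of the basement membrane, each a trimer of 1 alpha, 1 beta and 1 gamma chain joined along a coiled coil. The ends of the short arms hold the trimers together in a network that is tied to the collagen IV network by nidogens and perlecan, while the end of the alpha chain binds integrins, dystroglycan and the Lutheran glycoprotein on the cell. In the developing kidney Lama1 and Lamb1 give way to Lama5 and Lamb2 in the glomerular basement membrane, Lama1 persists beneath the proximal tubule, and Lama5 lies beneath most other tubules. Lama2 and Lama4 belong mainly to the mesangium, muscle and vessels. Lama3 and Lamb3 belong to the laminin that anchors stratified and other epithelia through integrin alpha6 beta4. Loss of Lamb2 function causes a nephrotic syndrome in humans, and hypomorphic Lama5 mutations cause cystic kidneys in mice.

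Total counts were 20.4 to 30.8 M per library. The tissue label was borne out by markers of podocytes, endothelium, proximal tubule, thick limb and distal tubule and collecting duct, each of which was detected in every library. Libraries 20 to 27 (RC/- D18 replicates 20 to 22 and all 5 of RC/- D53) stood apart in that 8 skeletal muscle markers summed to 164 to 218 CPM (read counts scaled to a common library total), against 7.68 to 12.1 CPM in the other 16 libraries. No unedited or noncystic library lies in this set, so for RC/- D53 the set and the edit cannot be told apart, and for RC/- D18 only replicates 18 and 19 lie outside it. Where fitting the set as a covariate changes the call of one of the 9 chains, that value is given, and for the 2 lists of other genes the counts.

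The 9 genes lie on 7 chromosomes. In the GRCm38 annotation Lama5 (ENSMUSG00000015647) spans chr2:180176373-180225859 on the minus strand, Lama1 (ENSMUSG00000032796) spans chr17:67697259-67822647, Lamb1 (ENSMUSG00000002900) spans chr12:31265234-31329644, and Lamb2 (ENSMUSG00000052911) spans chr9:108479736-108490530. Lama2 and Lama4 lie on chromosome 10, Lamb3 and Lamc1 on chromosome 1. The longest coding sequence was that of Lama5 with 3718 codons, against 1168 codons for Lamb3, the shortest. Exons of Lama2 and Lama3 share 3.86% and 1.83% of their bases with a gene on the other strand (Gm48084 and Gm29200), and since the strand kept in counting is not stated, some of their reads may belong to those genes.

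Promoter sequences of 300 bases, from 250 bases before to 50 bases after the gene start, were at hand in RefSeq (build GRCm38.p6) for 5 of the 9 chains, with 2 windows for Lamb3 and 1 each for Lama2, Lama5, Lamb1 and Lamb2. Both strands were searched for the letters TGACTCA or TGAGTCA (AP-1), CACGTG (the E-box of Myc), CATTCC (Tead) and GGGCGG (Sp factors). Lama5, the chain with the largest difference below, held GGGCGG 4 times, Lamb1 held it 2 times and Lama2 once. This motif occurs in 35.7% of 32851 mouse promoters of the same length. The sites of Lama5 and Lamb1 are shown because these are the chains with the largest difference and with the highest level, written 5′ to 3′ on the gene's strand, with the motif in capitals and its first base counted from 0 at the gene start.
Lama5, chr2:180226039-180226066, position -196: cgcggcctggcGGGCGGccagcaggtgc
Lama5, chr2:180225971-180225998, position -128: aggtccccaggCCGCCCcctctcttatg
Lama5, chr2:180225902-180225929, position -59: caggcgggcctGGGCGGggcctgacgtc
Lama5, chr2:180225857-180225884, position -14: agcgggaccggCCGCCCcaaactagact
Lamb1, chr12:31265198-31265225, position -84: cttgctgtcctCCGCCCcctccgccccc
Lamb1, chr12:31265207-31265234, position -75: ctccgccccctCCGCCCccgctctccat
The pair of Lamb1 windows overlap. One window of Lamb3 held CATTCC, which 14.7% of the promoters hold. The AP-1 letters (5.2% of promoters) and the E-box (7.15%) occurred in none of the 6 windows. These matches describe letters in a window and no test was made of them.

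To compare levels between genes, CPM were divided by the length of all exons of a gene in kb. This length joins the exons of all transcripts, and it exceeds the longest coding sequence by unlike amounts. It was 12068 bases for Lama4, with 5448 coding, and 9681 bases for Lama1, with 9249 coding. Ranks of chains therefore depend on it. Before division Lama4 was at 42.4 ± 3.01 and Lama1 at 34 ± 3.9 CPM in RC/+ (SD, n = 3). In RC/+ kidneys Lamb1 had the highest level at 42.5 ± 0.724 CPM per kb (SD, n = 3), followed by Lamc1 at 25.5 ± 1.49, Lamb2 at 18.2 ± 1.19 and Lama5 at 15.1 ± 0.34 CPM per kb. The remaining chains were far lower. Lama4 and Lama1 stood at 3.52 ± 0.25 and 3.51 ± 0.403 CPM per kb and did not differ beyond their spread, nor did Lama2 at 2.38 ± 0.627 and Lamb3 at 1.95 ± 1.05 CPM per kb. Lama3 was lowest at 1.08 ± 0.177 CPM per kb. In RC/- kidneys Lamb1 again had the highest level, at 56.1 ± 5.56 CPM per kb (SD, n = 5), whereas Lamc1 at 35.8 ± 3.95 and Lama5 at 35.4 ± 4.01 CPM per kb did not differ beyond their spread. Lama1 and Lama4, level with each other per kb in RC/+, stood at 2.53 ± 0.70 against 4.87 ± 0.607 CPM per kb in RC/-.

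Cystic RC/- kidneys held more laminin transcript than RC/+ kidneys, and the largest difference was that of Lama5, the alpha chain of most tubular basement membranes. Of the 9 chains, 5 were higher in RC/- at an adjusted p below 0.05, namely Lama5, Lamb2, Lamc1, Lama4 and Lamb1, and 0 were lower, with 25.5% of all tested genes called higher and 12.2% lower in this comparison. The same 5 chains had groups that did not overlap, which held for 37.6% of all tested genes. The median log2 fold change was 0.46 over the 9 chains and 0.14 over all tested genes. With TMM factors in place of total counts the median of all genes was 0.012, and of all calls 49.7% were higher against 67.7% with total counts. On that scale the log2 differences of the chains were 1.08 for Lama5, 0.36 for Lamb2, 0.34 for Lamc1, 0.32 for Lama4, 0.25 for Lamb1 and -0.66 for Lama1, so no sign changed and each value was lower than with total counts. Lama5, Lamb2 and Lamc1 kept their call with TMM factors, Lama4 and Lamb1 lost it, and Lama1 was called lower.

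Lama5 was at 168, 176 and 171 CPM in the 3 RC/+ libraries. In the 5 RC/- libraries it was at 429, 450.4, 405, 329.6 and 403 CPM. Every RC/- library thus lay far above every RC/+ library. The means were 172 ± 3.87 (SD, n = 3) and 403 ± 45.6 CPM (SD, n = 5), a 2.34-fold difference (log2 1.22 ± 0.14, SE; 95% interval 0.94 to 1.51; adjusted p = 1.53e-07).

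Lama1, the alpha chain of early nephron and proximal tubule basement membrane, had a difference of the other sign that missed the threshold. It was at 32.9, 38.3 and 30.7 CPM in RC/+ and at 32.2, 27.9, 25.2, 14.1 and 22.8 CPM in RC/-. The groups overlapped, since RC/- replicate 13 lay above RC/+ replicate 6. The log2 difference was -0.52 ± 0.22 (SE) with an adjusted p of 0.0624. With TMM factors it was -0.66 with an adjusted p of 0.0146, and the threshold was also passed with DESeq2 size factors, edgeR, DESeq2 and the covariate for libraries 20 to 27, and without any of RC/- replicates 13 and 14 and RC/- D18 replicates 19 and 22.

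Among the remaining alpha chains, Lama4, found in vessels and mesangium, was at 44.3, 39 and 44.1 CPM in RC/+ and at 64.8, 50.2, 51.5, 64.8 and 62.7 CPM in RC/-. It was 1.38-fold higher without overlap (log2 0.46 ± 0.16, SE; adjusted p = 0.0221), and this call was lost with TMM factors (0.32, adjusted p = 0.0703), DESeq2 size factors, edgeR or DESeq2, or without RC/+ replicate 5 (0.40, adjusted p = 0.0987). Lama2, the alpha chain of muscle and mesangium, was at 37.2, 29.7 and 49.9 CPM in RC/+ and at 58.8, 46.2, 37.5, 51.9 and 53 CPM in RC/-, with overlapping groups and a log2 difference of 0.36 ± 0.20 (SE; adjusted p = 0.172). Lama3, the alpha chain of anchoring epithelia, was at 10.2, 10.9 and 13.8 CPM in RC/+ and at 15.9, 18, 9.1, 10.7 and 16.3 CPM in RC/-. Its RC/- libraries split into 3 above and 2 within or below the RC/+ range, and the log2 difference was 0.23 ± 0.18 (SE; adjusted p = 0.349).

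Both widely expressed beta chains rose, as did Lamc1. Lamb2, the beta chain of the mature glomerular membrane, was at 103, 111 and 118 CPM in RC/+ and at 183, 173, 144, 149 and 138 CPM in RC/-. No RC/- library lay within the RC/+ range, and the difference was 1.41-fold (log2 0.50 ± 0.12, SE; adjusted p = 0.00125). Lamb1 was at 420.2, 416 and 429.8 CPM in RC/+ and at 635, 565, 513, 496 and 573 CPM in RC/-, 1.31-fold higher without overlap (log2 0.39 ± 0.14, SE; adjusted p = 0.0266). The Lamb1 call was lost with TMM factors (0.25, adjusted p = 0.105), DESeq2 size factors, edgeR and DESeq2, and without any of RC/+ replicates 4, 5 and 6 or RC/- replicate 13 (log2 0.34 to 0.41, adjusted p = 0.058 to 0.0756). Lamc1, the gamma chain shared by most laminins, was at 209.9, 199.8 and 224 CPM in RC/+ and at 344, 296, 288, 253 and 300.3 CPM in RC/-. It was 1.4-fold higher with no overlap (log2 0.48 ± 0.13, SE; adjusted p = 0.00621). Lamb3 was the one beta chain without a call, at log2 0.74 ± 0.56 (SE; adjusted p = 0.322), and is described separately.

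**Figure D1:**
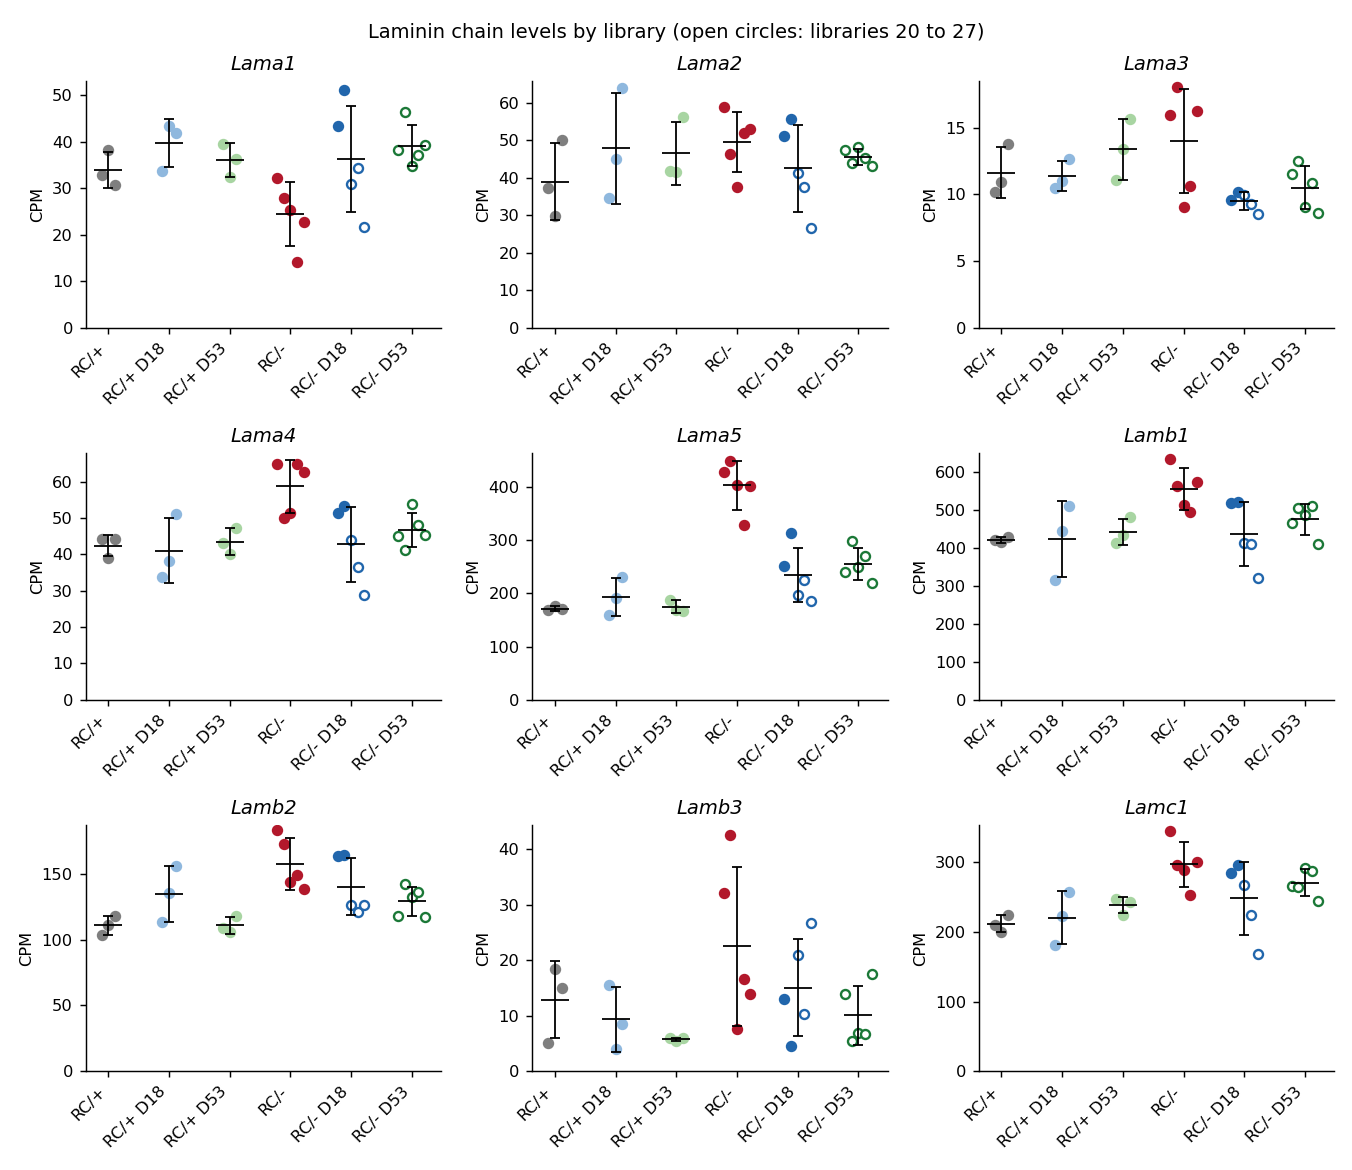
CPM of each laminin chain (vertical axis, from 0) in each of the 24 libraries, by group, with the mean and SD in black and libraries 20 to 27 as open circles. Lama5 was at 329.6 to 450.4 CPM in RC/- against at most 230.3 CPM in any RC/+ group, the mean of Lama1 was lowest in RC/-, and Lamb3 was scattered within the groups.

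Markers of kidney cell types moved with these differences. Summed CPM of 4 collecting duct markers were 940.3 to 1206 in RC/+ and 1966 to 4169 in RC/-, of 6 fibroblast markers 534 to 748 and 1079 to 1669, of 5 smooth muscle markers 136 to 169.8 and 376 to 811, and of 5 macrophage markers 178 to 192 and 326 to 552. Marker sums of other cells were lower in RC/-, though the endothelial sums overlapped between the groups. The sum of 6 proximal tubule markers was 6192 to 6702 CPM in RC/+ and 1418 to 3517 in RC/-, of 4 thick limb and distal tubule markers 4723 to 5282 and 1961 to 3576, of 6 podocyte markers 596 to 599 and 303 to 433, and of 6 endothelial markers 512 to 694 and 422 to 584. By single marker, all 4 collecting duct, 5 smooth muscle and 5 macrophage markers were called higher, but 3 of 6 fibroblast markers. All 6 proximal tubule, 3 of 4 thick limb and distal tubule and 4 of 6 endothelial markers were called lower. Of 6 podocyte markers 5 were called lower and 1 higher. Of all tested genes 25.5% were called higher and 12.2% lower. No marker was at 0 in all libraries of either group. In whole kidney more cells of a type and more RNA per cell cannot be told apart, and the part of these shifts in the laminin differences was not tested.

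The composition of the laminin pool shifted with the genotype, described here by the share of each chain in the summed CPM per kb of its class, alpha or beta. The size of each share depends on the exon lengths used. The alpha class summed to 25.6 ± 0.552 CPM per kb in RC/+ (SD, n = 3) and 47.2 ± 4.72 in RC/- (SD, n = 5). Lama5 made up 59% ± 1.68 of it in RC/+ and 75.1% ± 2.5 in RC/-, while Lama1 made up 13.7% ± 1.71 and 5.28% ± 1.07. The RC/- kidneys thus had an alpha pool held largely by Lama5, with every other alpha chain at a smaller share. Both edited RC/- groups lay in between, with Lama5 at 65.8% ± 2.84 in RC/- D18 and 65.6% ± 2.19 in RC/- D53, and Lama1 at 11.7% ± 1.31 and 11.9% ± 1.11. The beta class kept its proportions more closely. Lamb1 made up 67.9% ± 2.2 of it in RC/+ and 65.9% ± 3.0 in RC/-.

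**Figure D2:**
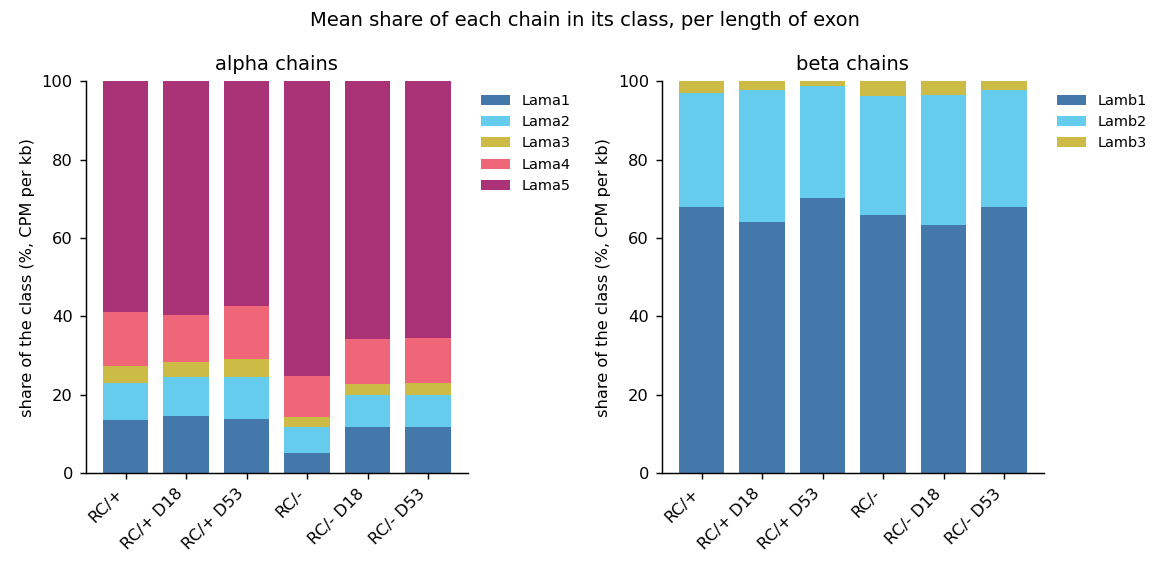
Mean share (percent of the summed CPM per kb of exon, vertical axis) of each chain among the alpha chains (left) and the beta chains (right), stacked by group. Lama5 takes 75.1% of the alpha class in RC/- against 59% in RC/+, and Lamb1 takes 67.9% of the beta class in RC/+ and 65.9% in RC/-.

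In RC/- D18 kidneys, in which the RC allele lacks the miR-17 motif, Lama5 was again the chain with the largest difference, now lower. Relative to unedited RC/- kidneys 4 of the 9 chains were lower (Lama5, Lama3, Lama4 and Lamb1) and 1 was higher (Lama1), with 26.9% of all tested genes called lower and 14.3% higher. Lama5 alone had groups that did not overlap, against 27.8% of all tested genes. The median log2 fold change was -0.36 over the 9 chains and -0.10 over all tested genes. With TMM factors the median of all genes was 0.0044, and 50.2% of all calls were higher against 34.8% with total counts.

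Lama5 was at 253, 313, 198, 225 and 186 CPM in the 5 RC/- D18 libraries, all below the lowest RC/- library at 329.6 CPM. The difference from RC/- was log2 -0.80 ± 0.12 (SE; 95% interval -1.04 to -0.55; adjusted p = 7.01e-06). With libraries 20 to 27 as a covariate it was -0.51 with an adjusted p of 0.00469, so the call held at a smaller size. Within the group, replicates 20 to 22 at 186 to 225 CPM lay below replicates 18 and 19.

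Lama1 moved in the opposite direction from Lama5. It was at 43.4, 51.2, 30.8, 34.4 and 21.7 CPM in RC/- D18, against 14.1 to 32.2 CPM in RC/-. The groups overlapped, since replicates 20 and 22 lay within the RC/- range. The difference was log2 0.56 ± 0.19 (SE; adjusted p = 0.019), and 1.0 (adjusted p = 0.00103) with the covariate. The call was lost in a fit of these groups only (0.56, adjusted p = 0.084) and without RC/- replicate 16 (0.37, adjusted p = 0.0801), RC/- D18 replicate 18 (0.48, adjusted p = 0.0564) or RC/- D18 replicate 19 (0.42, adjusted p = 0.072).

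The other calls in RC/- D18 did not hold when libraries 20 to 27 were fitted as a covariate. Over all tested genes calls were also fewer then, at 10.9% higher and 16.7% lower. Lama4 was at 51.3, 53.5, 44, 36.7 and 28.7 CPM (log2 -0.48 ± 0.14, SE; adjusted p = 0.00576), with replicates 18 and 19 inside the RC/- range of 50.2 to 64.8 CPM. With the covariate its difference was -0.16 (adjusted p = 0.483). Lamb1 was at 519, 523, 414, 411 and 321 CPM (log2 -0.36 ± 0.12, SE; adjusted p = 0.0167), and replicates 18 and 19 again lay in the RC/- range. Its difference was -0.090 (adjusted p = 0.674) with the covariate, -0.25 (adjusted p = 0.0602) with TMM factors and -0.26 (adjusted p = 0.0713) without replicate 22. Lama3 was at 9.59, 10.2, 9.97, 9.26 and 8.53 CPM, a narrow range at the low end of RC/- (log2 -0.51 ± 0.16, SE; adjusted p = 0.011; -0.45 and adjusted p = 0.118 with the covariate). The chains without a call were Lama2 at -0.25 (adjusted p = 0.278), Lamb2 at -0.17 (0.177), Lamb3 at -0.56 (0.384) and Lamc1 at -0.28 (0.0574). Lamc1 lay just outside the threshold and passed it in 8 of the alternatives, among them without RC/- D18 replicate 19 (-0.35, adjusted p = 0.0203). Its difference was -0.026 (adjusted p = 0.916) with the covariate and -0.16 (adjusted p = 0.205) with TMM factors. With the covariate Lama2 and Lamb2 took the other sign at 0.13 and 0.067.

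In RC/- D53 kidneys Lama5 was again lower and Lama1 higher than in unedited RC/- kidneys. There were 2 chains called lower (Lama5 and Lamb2) and 1 called higher (Lama1), with 18.9% of all tested genes called lower and 11.3% higher. Groups did not overlap for Lama5 and Lama1, and for 18.8% of all tested genes. The median log2 fold change was -0.28 over the 9 chains and -0.081 over all tested genes. With TMM factors 53.2% of all calls were higher against 37.4% with total counts. Both edited groups were compared with the same 5 RC/- libraries, so these results are not independent of those for RC/- D18.

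Lama5 was at 239.6, 298, 249, 269.9 and 219 CPM in RC/- D53, all below every RC/- library (log2 -0.66 ± 0.12, SE; 95% interval -0.90 to -0.42; adjusted p = 0.000135). Lama1 was at 38.3, 46.4, 34.8, 37.2 and 39.2 CPM, all above every RC/- library (log2 0.72 ± 0.19, SE; adjusted p = 0.0046). Lamb2 was at 118, 142, 133, 136 and 117 CPM, overlapping the lower RC/- libraries (log2 -0.28 ± 0.10, SE; adjusted p = 0.0346). The Lamb2 call was lost with TMM factors (-0.19, adjusted p = 0.114), DESeq2 size factors, edgeR and DESeq2, with no filter, and without RC/- replicate 13 or 14 or RC/- D53 replicate 23 or 27 (-0.25 to -0.22, adjusted p = 0.0812 to 0.104).

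With libraries 20 to 27 as a covariate, whose effect for this group is taken from RC/- D18 replicates 20 to 22 against 18 and 19, the Lama5 difference was -0.18 (adjusted p = 0.587) and the Lama1 difference 1.45 (adjusted p = 0.0025). The Lama5 call thus did not hold under this covariate and the Lama1 call did. Over all tested genes only 3.81% were called higher and 4.15% lower under it. The chains without a call were Lama2 at -0.10 (adjusted p = 0.715), Lama3 at -0.38 (0.0731), Lama4 at -0.33 (0.0731), Lamb1 at -0.22 (0.171), Lamb3 at -1.05 (0.11) and Lamc1 at -0.13 (0.451). With the covariate Lama2, Lama4, Lamb1, Lamb2 and Lamc1 took the other sign, at 0.52, 0.22, 0.23, 0.12 and 0.30, with adjusted p of at least 0.269. Without RC/- replicate 15 the calls numbered 5, as Lama3 (-0.52, adjusted p = 0.00879) and Lamb3 (-1.37, adjusted p = 0.036) were added. Lama3 also passed without RC/- replicate 16 (-0.46, adjusted p = 0.0348) or RC/- D53 replicate 24 (-0.44, adjusted p = 0.0494) and with sex as a covariate (-0.38, adjusted p = 0.0316). Lama4 passed in a fit of these groups only (-0.33, adjusted p = 0.0223) and without RC/- replicate 14 (-0.38, adjusted p = 0.0466) or RC/- D18 replicate 22 (-0.33, adjusted p = 0.0301).

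The chains without a call in RC/- D53 show by library how much the groups shared. Lamc1 was at 265, 264, 291, 287 and 244 CPM in RC/- D53 and at 284, 295, 266, 224 and 168 CPM in RC/- D18, against 253 to 344 CPM in RC/-. Lamb1 was at 466, 506, 488, 512 and 410.0 CPM in RC/- D53, against 496 to 635 CPM in RC/-. Both sets of RC/- D53 values overlapped the RC/- range. Lama4 was at 45.1, 41.3, 54, 48 and 45.5 CPM and Lama3 at 11.5, 12.5, 9.09, 10.8 and 8.62 CPM in RC/- D53, both overlapping the low end of the RC/- range. Lama2 was at 47.4, 43.9, 48.3, 45.2 and 43.2 CPM in RC/- D53 and 51.3, 55.7, 41.3, 37.6 and 26.6 CPM in RC/- D18, where replicates 18 and 19 lay above replicates 20 to 22. Lama2, a chain of skeletal muscle basement membrane, was at 26.6 to 48.3 CPM in libraries 20 to 27 and 29.7 to 63.9 CPM in the other 16.

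Cell type marker sums also differed between the edited and the unedited RC/- groups. The proximal tubule sum was 5762 to 7635 CPM in RC/- D18 and 4531 to 5738 in RC/- D53, above the 1418 to 3517 CPM of RC/-. The collecting duct sum was 1096 to 1506 CPM in RC/- D18 and 1457 to 2579 in RC/- D53, against 1966 to 4169 CPM in RC/-. The fibroblast sum was 394 to 915 and 611 to 936 CPM, against 1079 to 1669 CPM in RC/-, and the macrophage sum 225 to 247 and 241 to 325 CPM, against 326 to 552 CPM. Their part in the laminin values of the edited kidneys was not tested.

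**Figure D3:**
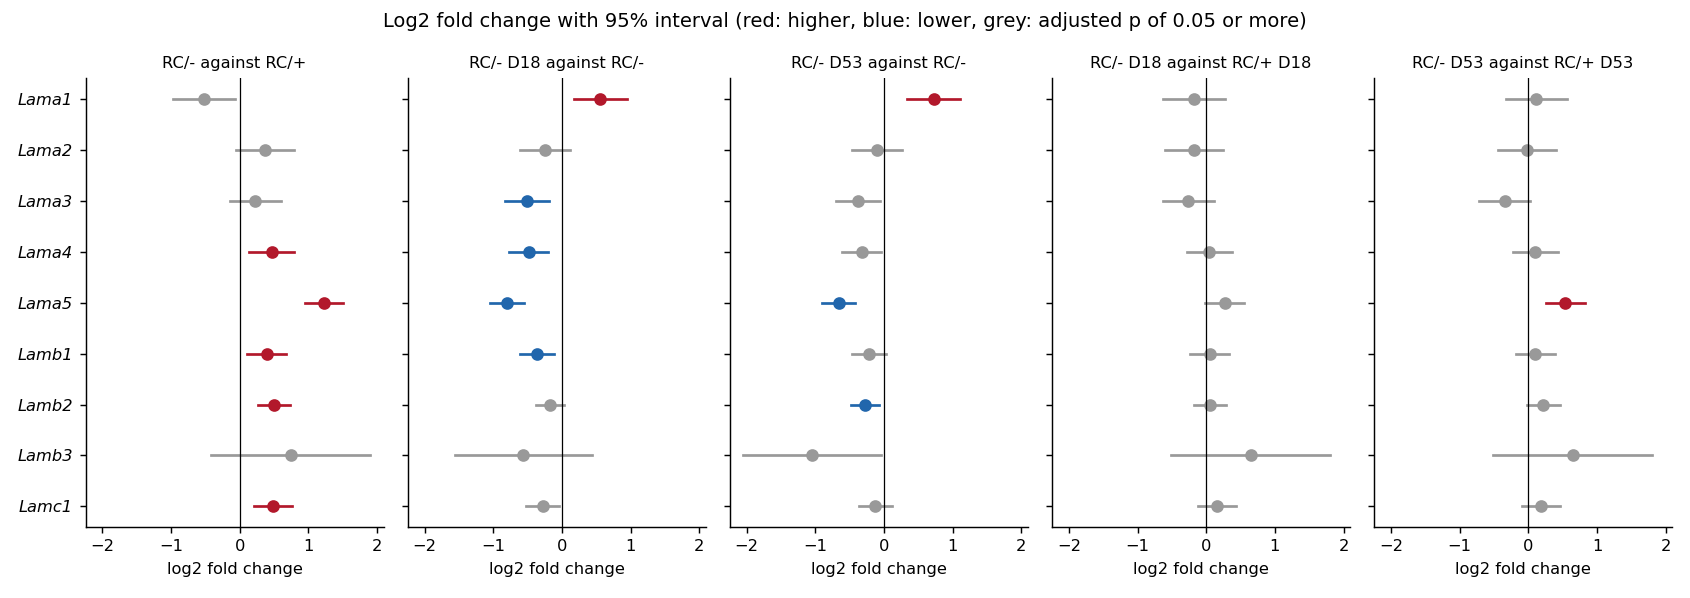
Log2 fold change with its 95% interval (horizontal axis) of each chain in 5 comparisons, red for higher and blue for lower at an adjusted p below 0.05, grey otherwise. Lama5 runs from 1.22 in RC/- against RC/+ to -0.80 and -0.66 in RC/- D18 and RC/- D53 against RC/-, and Lama1 has the opposite sign in each of these 3 comparisons.

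Within the edited lines fewer chains were called between RC/- and RC/+ kidneys. In RC/- D18 against RC/+ D18 the number of chains called was 0 of 9, with 0.266% of all tested genes called and 0 chains at an unadjusted p below 0.05 in limma. The count was also 0 with edgeR and DESeq2. The lowest adjusted p was that of Lama5, at 159, 191 and 230.3 CPM in RC/+ D18 (log2 0.27 ± 0.14, SE; 95% interval -0.010 to 0.55; adjusted p = 0.579). The Lama5 interval includes 0 and also the estimate for the D53 line. Lama3 had groups without overlap, 10.5, 11 and 12.7 CPM in RC/+ D18 against at most 10.2 in RC/- D18, at -0.26 (adjusted p = 0.759). The others were Lama1 at -0.18 (adjusted p = 0.899), Lama2 at -0.17 (0.898), Lama4 at 0.046 (0.977), Lamb1 at 0.052 (0.967), Lamb2 at 0.056 (0.954), Lamb3 at 0.65 (0.832) and Lamc1 at 0.16 (0.831).

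In RC/- D53 against RC/+ D53 the one chain called was Lama5, which was higher, with 2.45% of all tested genes called higher and 0.146% lower. Lama5 was at 189, 168 and 167 CPM in RC/+ D53, all below the RC/- D53 libraries, which began at 219 CPM. The difference was 1.45-fold (log2 0.54 ± 0.14, SE; adjusted p = 0.0286). This call depended on single libraries, since the adjusted p was 0.0551 to 0.143 (log2 0.48 to 0.60) without RC/+ D53 replicate 10, 11 or 12 or RC/- D53 replicate 24, 25 or 26, and 0.0521 with no filter. With the covariate the difference was 1.02 (adjusted p = 0.00972), and Lamb2 was also called at 0.62 (adjusted p = 0.0487) against 0.22 (adjusted p = 0.436) without it. The other chains were Lama1 at 0.12 (adjusted p = 0.894), Lama2 at -0.016 (0.988), Lama3 at -0.34 (0.428), Lama4 at 0.10 (0.861), Lamb1 at 0.10 (0.837), Lamb3 at 0.65 (0.697) and Lamc1 at 0.18 (0.627).

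The difference between the cystic effect in an edited line and that in the unedited line was tested as an interaction. Lama5 was the one chain that passed in either line, at -0.95 ± 0.19 (SE; adjusted p = 0.00126) for D18 and -0.68 ± 0.19 (SE; adjusted p = 0.0223) for D53, where 17.1% and 11.3% of all tested genes passed. With edgeR and DESeq2 the count was also 1 in each line. The cystic difference of Lama5 was thus smaller in both edited lines than in the unedited line. With the covariate these values were -0.67 (adjusted p = 0.0201) and -0.21 (adjusted p = 0.725), and the D53 value without RC/+ D53 replicate 10 was -0.63 (adjusted p = 0.0655). In the D53 line the covariate made Lama1 the one chain called, at 1.36 (adjusted p = 0.045).

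In noncystic kidneys no chain was called between edited and unedited mice. Between RC/+ D18 and RC/+ the count was 0 of 9 with 0.00443% of all tested genes called, and 1 chain, Lamb2, had an unadjusted p below 0.05 (113, 135 and 156 CPM in RC/+ D18, against 103 to 118 CPM in RC/+). Between RC/+ D53 and RC/+ it was 0 of 9 with 0% called and 0 chains below an unadjusted p of 0.05. Lamc1 had RC/+ D53 libraries of 246, 225 and 242 CPM, above the highest RC/+ library at 224 CPM by a margin smaller than the spread within either group. Between RC/- D53 and RC/- D18 the count was also 0 of 9, with 0.266% called, 0 chains below an unadjusted p of 0.05 and adjusted p of at least 0.615. All 3 counts were 0 with edgeR and DESeq2 as well. The 95% interval for Lama5 in that comparison was -0.11 to 0.38 on the log2 scale.

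The levels in the edited noncystic kidneys were as follows. Lama1 was at 33.8, 43.4 and 41.8 CPM in RC/+ D18 and 39.6, 32.4 and 36.4 CPM in RC/+ D53. Lama2 was at 34.7, 45.1 and 63.9 and 41.9, 41.5 and 56.1 CPM, and Lama4 at 33.9, 38.2 and 51.2 and 43.1, 40.01 and 47.4 CPM. RC/+ D18 replicate 7 was the lowest library of its group for these 3 chains and also for Lama5, Lamb1, Lamb2 and Lamc1. Lamb1 was at 315, 446 and 511 CPM in RC/+ D18 and 414, 435 and 481 CPM in RC/+ D53, and Lamb2 at 109, 105 and 118 CPM in RC/+ D53. Lamc1 was at 181, 222 and 257 CPM in RC/+ D18, Lama3 at 11.1, 13.4 and 15.7 CPM in RC/+ D53, and Lamb3 at 15.5, 3.99 and 8.61 and 5.93, 5.45 and 5.99 CPM.

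Because the differences of Lama1 and Lama5 had opposite signs, their ratio within a library, which does not depend on the scaling of libraries, was compared, and so was that of Lamb1 to Lamb2. These pairs follow the known exchange of chains during kidney maturation, and they were chosen with the values of Lama1 and Lama5 known, so the differences in the ratio of these 2 chains are a description, with no test. The log2 ratio of Lama1 to Lama5 was -2.47 to -2.20 in RC/+, -2.46 to -2.13 in RC/+ D18 and -2.38 to -2.20 in RC/+ D53. In RC/- kidneys it was -4.54 to -3.73, below every other library. The edited RC/- groups lay between, at -3.09 to -2.54 in RC/- D18 and -2.86 to -2.48 in RC/- D53. In raw reads this is 0.198 ± 0.0189 Lama1 reads per Lama5 read in RC/+ (SD, n = 3), against 0.0597 ± 0.0117 for RC/- libraries. RC/- D18 had 0.152 ± 0.0211 and RC/- D53 0.154 ± 0.0168 (SD, n = 5 for each RC/- group).

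The RC/- against RC/+ difference in this log2 ratio was -1.74, without overlap. In RC/- D18 against RC/- it was 1.36 and in RC/- D53 against RC/- 1.38. In each comparison 5 of 5 edited libraries lay above all 5 RC/- libraries. RC/- D18 replicates 18 and 19, which lie outside libraries 20 to 27, were at -2.54 and -2.61, the highest of their group. Within the edited lines the RC/- kidneys were lower than the RC/+ kidneys of their own line by log2 differences of -0.45 for D18 and -0.42 for D53, without overlap.

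The log2 ratio of Lamb1 to Lamb2 did not pass in any of the same 5 comparisons by a two-sided exact permutation test, adjusted over the 10 tests of both ratios. Where an RC/- group was set against an RC/+ group, 5 against 3 libraries, the smallest possible exact permutation p was 0.0357 before adjustment. Even full separation there could hardly pass after adjustment, so these tests do not show an unchanged ratio. It was 1.93 ± 0.081 in RC/+ (SD, n = 3) and 1.83 ± 0.13 in RC/- (SD, n = 5; difference -0.11, exact permutation p = 0.25, adjusted 0.312). It was 1.63 ± 0.17 in RC/- D18, -0.19 from RC/- (exact permutation p = 0.0397, adjusted 0.0661), and 1.88 ± 0.071 in RC/- D53, 0.058 from RC/- (exact permutation p = 0.397, adjusted 0.441). It was as low in noncystic D18 kidneys, at 1.64 ± 0.14 in RC/+ D18 (SD, n = 3; cystic difference -0.0035, exact permutation p = 0.964, adjusted 0.964). RC/+ D53 was at 2.00 ± 0.061 (SD, n = 3; cystic difference -0.12, exact permutation p = 0.0714, adjusted 0.102). RC/- D53 exceeded RC/- D18 by 0.25 without overlap, in a comparison outside those 5 that was added after the data were seen. Its exact permutation p was 0.00794, the smallest possible there, and 0.0159 when adjusted over the 2 ratios only. Within libraries 20 to 27 RC/- D53 exceeded RC/- D18 by 0.27 (exact permutation p = 0.0357, also the smallest possible, and 0.0714 adjusted). RC/+ D53 lay at 1.93 to 2.04 and RC/+ D18 at 1.48 to 1.72, also without overlap, and this difference was not tested.

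**Figure D4:**
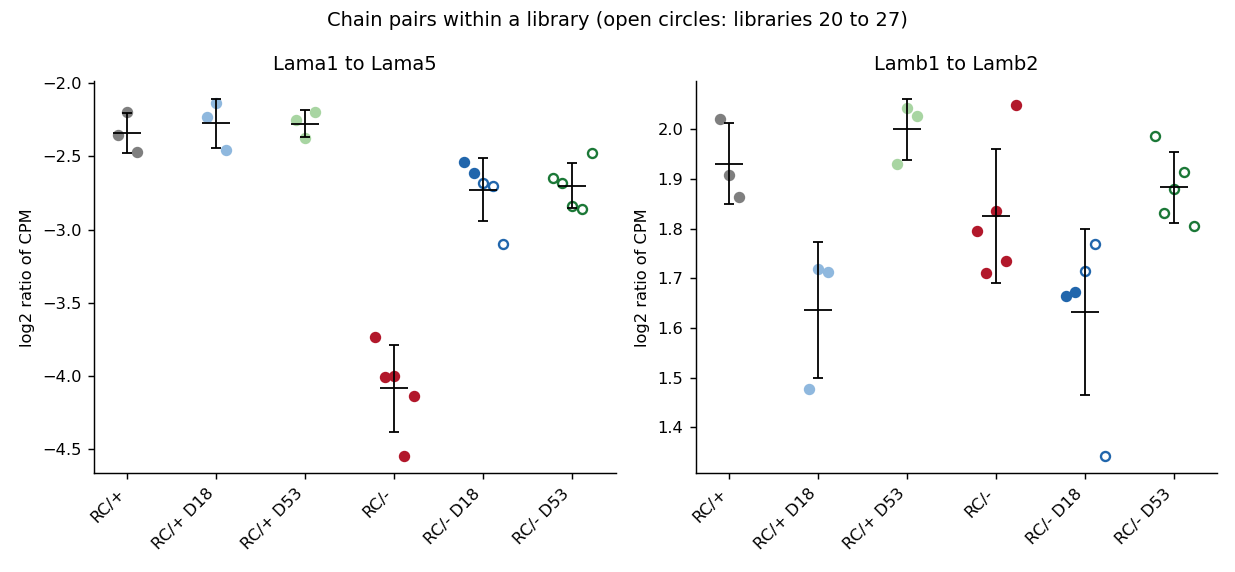
Log2 ratio of CPM (vertical axis) of Lama1 to Lama5 (left) and of Lamb1 to Lamb2 (right) in each library by group, with mean and SD in black and libraries 20 to 27 as open circles. The 5 RC/- libraries have the lowest ratios of Lama1 to Lama5, -4.54 to -3.73, and the D18 groups have the lowest means of Lamb1 to Lamb2, 1.64 and 1.63.

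Lamb3, the beta chain that pairs with Lama3, showed the widest scatter between single kidneys. It ranged from 3.99 CPM (RC/+ D18 replicate 8) to 42.4 CPM (RC/- replicate 14), a 10.6-fold range against 1.77-fold to 3.64-fold for the other 8 chains. It was at 5.1, 18.5 and 15.1 CPM in RC/+ and 32.1, 42.4, 7.55, 16.6 and 14 CPM in RC/-. RC/- D18 libraries were at 13.1, 4.5, 20.9, 10.3 and 26.8 CPM and RC/- D53 libraries at 13.8, 5.5, 6.89, 6.73 and 17.5 CPM. The coefficient of variation was 52.4% to 63.6% in the groups other than RC/+ D53, where it was 5.13%, and all groups overlapped with their comparison groups. Lamb3 counts were 94 to 1005 reads.

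Markers of the inner medulla and urothelium varied with Lamb3 between libraries, with exceptions. The sum of 5 inner medulla and papilla markers (Akr1b3, Slc5a3, Slc6a12, Slc14a2 and Aqp4) ranged from 343 CPM in RC/- replicate 17 to 1734 CPM in RC/- replicate 14. The sum of 6 urothelium markers (Upk1a, Upk1b, Upk2, Upk3a, Upk3b and Krt5) ranged from 26.2 CPM in RC/- D18 replicate 19 to 222 CPM in RC/- replicate 14. RC/- replicate 14, the library highest in Lamb3, was thus highest in both sums. Both lists were drawn up after the Lamb3 values had been seen. Akr1b3, in the first list, is also the gene that correlated best with Lamb3 in these libraries (r = 0.947). The agreement of that sum with Lamb3 was thus partly fixed in advance and is no separate result. RC/- replicate 16 had a lower papillary sum (619 CPM) beside a high urothelial one (219 CPM) and 16.6 CPM of Lamb3. RC/- replicate 17, lowest in the papillary sum, had 14 CPM of Lamb3. The RC/+ D53 libraries had only 5.45 to 5.99 CPM of Lamb3 at papillary sums of 593 to 653 CPM. How much deep tissue each sample held was not measured, and its part in the Lamb3 values was not tested.

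**Figure D5:**
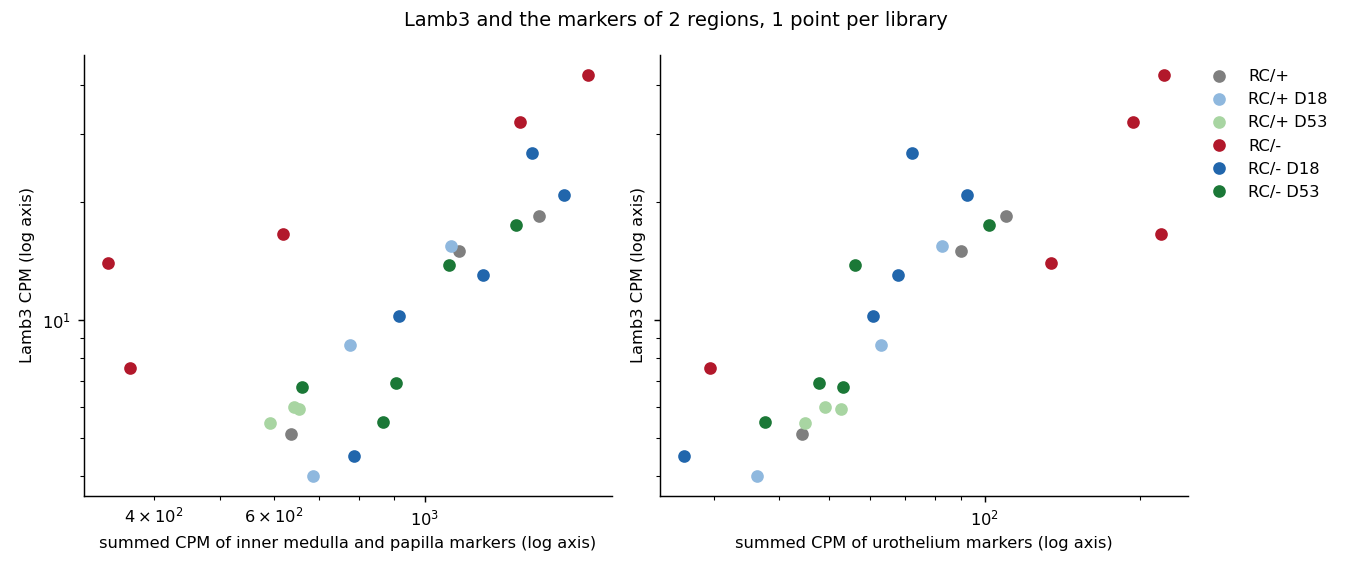
Lamb3 CPM (vertical log axis) against the summed CPM of 5 inner medulla and papilla markers (left) and of 6 urothelium markers (right, log axes), 1 point per library, coloured by group. Lamb3 runs from 3.99 CPM at 685 and 36.2 CPM of the markers to 42.4 CPM at 1734 and 222 CPM.

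The chains also varied with one another and with other genes after the group means were removed. These correlations are over 24 libraries that share depth and dissection, and are given as a description. The closest pairs of chains were Lamb1 and Lamc1 (r = 0.899) and Lama2 and Lama4 (r = 0.886), and Lama1 and Lama5 correlated at r = 0.817 within groups. Lamb3 had r between -0.444 and 0.241 to the other 8 chains. The genes most like Lamc1 were Nid2 (r = 0.957), a nidogen that links laminin to collagen IV, and Col4a2 (r = 0.938), a collagen IV chain. Those most like Lama4 were Pxdn (r = 0.947), which crosslinks collagen IV, and Nid1 (r = 0.933). The closest to Lamb1 were Cul7 (r = 0.936) and the protocadherin Fat1 (r = 0.931), to Lamb2 Srrt (r = 0.947) and Rfx1 (r = 0.909), and to Lama5 Ikbkb (r = 0.937) and Atxn2l (r = 0.933). Lama1 was closest to Palm3 (r = 0.890) and Emc1 (r = 0.882), Lama2 to Clstn2 (r = 0.926) and Cyth3 (r = 0.917), and Lama3 to Tsga10ip (r = 0.823) and Slc4a5 (r = 0.802). Lamb3 was closest to Akr1b3 (r = 0.947), the aldose reductase of the hypertonic medulla, and the claudin Cldn11 (r = 0.946).

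Lamc3, a gamma chain read for context and not among the 9, was at 12.6 ± 1.62 CPM in RC/+ and 9.41 ± 1.5 in RC/- (-0.42 ± 0.15, SE; adjusted p = 0.0313), and was higher than in RC/- in RC/- D18 (0.69 ± 0.13, SE; adjusted p = 0.000172) and RC/- D53 (0.44 ± 0.13, SE; adjusted p = 0.0139).

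Other basement membrane genes and the laminin receptors were read from lists drawn up with earlier results known, so their counts are given beside those of all tested genes. Of 19 basement membrane partners 9 were higher and 2 lower in RC/- against RC/+, where 25.5% of all tested genes were higher and 12.2% lower. The partners had a median log2 fold change of 0.35, against 0.14 over all tested genes. The 4 with the largest changes were Fras1, a matrix protein beneath epithelia (1.56 ± 0.16, SE; adjusted p = 4.09e-08), Col15a1 (0.90 ± 0.26; 0.00748), Hspg2, the proteoglycan perlecan (0.87 ± 0.15; 7.79e-05), and Agrn, the proteoglycan agrin (0.87 ± 0.13; 6.09e-06). Among the 14 receptors and their partners 9 were higher and 0 lower, with a median of 0.41. The 4 largest were Itgb4, the integrin beta subunit of hemidesmosomes (2.51 ± 0.12, SE; adjusted p = 7.33e-13), Itga2 (1.61 ± 0.49; 0.0123), the syndecan Sdc1 (1.60 ± 0.12; 2.12e-10) and Bcam, the Lutheran glycoprotein that binds Lama5 (1.32 ± 0.11; 2.66e-09). In RC/- D18 against RC/- the partners had 4 higher and 10 lower (median -0.33) and the receptors 0 higher and 7 lower (median -0.46), where 14.3% of all tested genes were higher and 26.9% lower (median -0.10). In RC/- D53 against RC/- the partners had 2 higher and 7 lower (median -0.16) and the receptors 0 higher and 8 lower (median -0.35), where 11.3% of all tested genes were higher and 18.9% lower (median -0.081). Within the D18 line 0 partners and 2 receptors (Itgb4 and Itgav) were called, all higher, where 0.266% of all tested genes were called. Within the D53 line 1 partner (Fras1) and 3 receptors (Itgb4, Bcam and Itga3) were called, all higher, where 2.45% of all tested genes were higher and 0.146% lower.

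Most of the lower calls among the partners were lost with libraries 20 to 27 as a covariate. The partners then had 4 higher and 4 lower in RC/- D18 against RC/-, where 10.9% of all tested genes were higher and 16.7% lower, and 2 higher and 0 lower in RC/- D53 against RC/-, where 3.81% were higher and 4.15% lower. Their median took the other sign in RC/- D53 (0.21). The receptors had 0 higher in both, with 7 lower in RC/- D18 and 4 lower in RC/- D53 (Itga3, Itgb4, Bcam and Sdc1). Within the D18 line 1 partner (Fras1) and 1 receptor (Itgb4) were then called, and within the D53 line 2 partners (Fras1 and Col18a1) and 2 receptors (Itgb4 and Bcam), all higher. Of all tested genes 0.0443% were then called higher and 0.00443% lower within the D18 line, and 0.992% and 0.279% within the D53 line.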

How the data were processed

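RNA-seq was performed on whole kidneys of 24 mice in 6 groups. The authors trimmed reads with Trim Galore 0.6.3, aligned them to GRCm38 with STAR 2.5.3a and deposited its raw read counts per gene on Ensembl gene models, without normalization. The strand column kept is not stated. The number of unused per-sample columns was 0.

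Read counts were scaled to log2 CPM by total counts with a prior count of 2, and the 22570 of 54532 genes whose mean log2 CPM reached -3 were tested with limma-trend (limma 3.58.1, R 4.3.3) in 1 model of 6 group means over all 24 libraries. Tests were two-sided, the threshold was a Benjamini-Hochberg adjusted p of 0.05 over all tested genes in a comparison, and fold changes are on the log2(CPM + prior) scale. The scripts were tested on simulated data. The ratio of Lamb1 to Lamb2 was compared by exact permutation tests, adjusted over 10 tests that include those of Lama1 to Lama5, which are not given because that pair was chosen with its values known. Alternatives were TMM factors, DESeq2 size factors, other filters, a prior count of 0.5, edgeR 4.0.16, DESeq2 1.42.0, fits of only the groups compared, sex as a covariate, libraries 20 to 27 as a covariate and each library left out. Sex was inferred from the counts themselves, with Xist above Ddx3y in 14 libraries and Ddx3y above Xist in 10. Leaving out libraries 20 to 27, the covariate for the 2 context lists and the ratio in RC/- D53 against RC/- D18 over all libraries were added after the data were seen.

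The chains, the lists of partners, receptors and cell type markers and the ratios were chosen with earlier results of these data known. Every chain is named. From each of the 2 context lists the 4 genes with the largest absolute change among those called in RC/- against RC/+ are named, with any others called within an edited line, and for each chain the 2 genes whose log2 CPM correlated best with it after removal of group means. Libraries are taken as separate mice from their labels. Libraries held 20.4 to 30.8 M reads, and the spread within a group holds both counting error and differences between mice. Among the 9 chains counting error weighs most for Lama3 and Lamb3, whose lowest counts were 213 and 94 reads. The p-values of limma-trend set a difference between groups against this spread. No replicate number links libraries of different groups.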

Additional observations from a re-analysis of the deposited data

Results flagged for a closer look

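The difference between RC/- and RC/+ kidneys in Lama5 was smaller in the D18 line than in the unedited line by a log2 interaction of -0.95 ± 0.19 (SE; limma-trend, adjusted p = 0.00126), and it kept its call in each of 35 alternatives (-1.09 to -0.67). Among these are fits without 1 of the D53 libraries, which bear on this interaction only through the shared spread. In the D53 line the interaction was -0.68 ± 0.19 (SE; limma-trend, adjusted p = 0.0223). This one was lost with libraries 20 to 27 as a covariate (-0.21, adjusted p = 0.725) and without RC/+ D53 replicate 10 (-0.63, adjusted p = 0.0655). Every RC/- D53 library lies in the set of libraries with skeletal muscle transcripts, so for this line the set and the edit cannot be told apart. In a search for single libraries far from the rest of their group, 0 of 27 sets of 5 libraries (9 chains in 3 groups) held one.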

How the results depend on the processing

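Of the values computed under alternatives, 1514 kept their direction and side of the threshold, 47 lost the call, 26 gained one and 30 changed sign. The 1514 include fits without a library of neither group compared, where only the shared spread and the adjustment can change. They also include chains that were called in neither fit, so this number is no measure of how stable the calls are. The report gives the main changes that end or add a call beside the result, and not each alternative. The cause was not tested.

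The count of 5 chains called in RC/- against RC/+ was 3 to 6 with single libraries left out, the lowest without RC/+ replicate 5 and the highest without RC/- replicate 14 or RC/- D18 replicate 19 or 22. With TMM factors Lama4 and Lamb1 lost their call in this comparison and Lama1 was called lower. The count of 5 in RC/- D18 against RC/- was 2 with libraries 20 to 27 as a covariate and 2 with them left out. Of all tested genes 10.9% were higher and 16.7% lower in this comparison with the covariate, against 14.3% and 26.9% without it. The count of 3 in RC/- D53 against RC/- was 1 with the covariate and 2 to 5 with single libraries left out, the highest without RC/- replicate 15. Here 3.81% of all tested genes were higher and 4.15% lower with the covariate, against 11.3% and 18.9% without it. The loss of calls was thus not particular to the laminin chains. The count of 1 in RC/- D53 against RC/+ D53 was 0 with no filter, 2 with the covariate and 0 to 1 with single libraries left out. The interaction count of 1 in the D18 line was 2 at a mean log2 CPM of at least 0 and 1 to 3 with single libraries left out, the highest without RC/+ D18 replicate 7 and 2 without RC/- replicate 17 or RC/- D18 replicate 18 or 19. In the D53 line it was 0 to 2, with 0 without RC/+ D53 replicate 10 and 2 without RC/- replicate 15. When calls also had to reach 1 in absolute log2 fold change, 1 chain (Lama5) remained in RC/- against RC/+ and 0 in the other comparisons.

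With libraries 20 to 27 as a covariate the sign changed in RC/- D18 against RC/- for Lama2 (0.13) and Lamb2 (0.067), with the same values when they were left out. In RC/- D53 against RC/- it changed for Lama2 (0.52), Lama4 (0.22), Lamb1 (0.23), Lamb2 (0.12) and Lamc1 (0.30). In RC/- D18 against RC/+ D18 it changed for Lama1 (0.26), Lama2 (0.20) and Lamb3 (-0.080), with the same values when they were left out, and in RC/- D53 against RC/+ D53 for Lama2 (0.61) and Lamb3 (-0.57). Sex as a covariate changed the sign of Lama2 there (0.054). With single libraries left out, values in RC/- D18 against RC/+ D18 crossed 0 for Lama2 (-0.38 to 0.057), Lama4 (-0.082 to 0.22), Lamb1 (-0.15 to 0.20) and Lamb2 (-0.065 to 0.17), and in RC/- D53 against RC/+ D53 for Lama2 (-0.091 to 0.13). None of these chains was called in those 2 comparisons.

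The log2 ratio of Lama1 to Lama5 kept its direction with single libraries left out, at 1.24 to 1.45 in RC/- D18 against RC/- and 1.27 to 1.47 in RC/- D53 against RC/-. Between RC/- D53 and RC/- D18 it crossed 0 (-0.066 to 0.073). The ratio of Lamb1 to Lamb2 crossed 0 in RC/- D18 against RC/+ D18 (-0.083 to 0.069), and between RC/- D53 and RC/- D18 it was 0.27 within libraries 20 to 27 (adjusted exact permutation p = 0.0714). No paired analysis was possible because the libraries carry separate numbers that link no library of one group to one of another.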

Other observations

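The ratio of Lamb1 to Lamb2 was also compared by value in noncystic kidneys. On the log2 scale it was 1.48 to 1.72 in RC/+ D18 and 1.86 to 2.02 in RC/+, and the groups did not overlap. No test was made, since 3 against 3 libraries cannot give an exact permutation p below 0.1. Lamb2 was at 113, 135 and 156 CPM in RC/+ D18 against 103, 111 and 118 CPM in RC/+ (not called; limma-trend, adjusted p = 0.983), and Lamb1 at 315, 446 and 511 CPM against 420.2, 416 and 429.8 CPM.

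Lama2 and Lama4 varied with the summed fibroblast markers after removal of group means (r = 0.894 and r = 0.908 over 24 libraries, given as a description of libraries that share depth and dissection). This was not particular to fibroblasts or to these chains. Their r was 0.734 and 0.724 with the endothelial sum, 0.638 and 0.741 with the podocyte sum, and -0.583 and -0.565 with the collecting duct sum. Lamb1 and Lamc1 had r of 0.694 and 0.701 with the fibroblast sum.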
